A study of Nothobranchius furzeri with 20 samples.

Results

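The genes described here are 150 of the 26739 genes counted in 20 liver libraries of male turquoise killifish (Nothobranchius furzeri) of the GRZ strain. They were chosen because their levels differed between individual fish at 5 weeks of age more than at any later age. The fish form 4 groups of 5 fish each, at 5, 7, 10 and 14 weeks, all untreated as far as the labels say. GRZ is an inbred, short-lived laboratory strain. Levels are in CPM, the read count of a gene scaled by the total of its library, and differences are on the scale of log2(CPM + 0.5). A gene had to average at least 5 CPM over the 20 libraries, which 9637 genes did. The 100 genes of highest mean CPM were then set aside, which left 9537. The medians of the 4 ages had to lie within 1 log2 unit of each other, which left 6360. These were ranked by the standard deviation (SD) over the 5 fish of 5 weeks minus the largest SD of the other ages, and the first 150 were taken. The last gene taken, Nfu_g_1_022155, had an excess of 0.442 (SD 0.971 at 5 weeks, 0.529 at most later), and the first left out, Nfu_g_1_014757, had 0.440 (SD 0.776 and 0.336).

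The liver makes plasma proteins, bile and stored fuels, and its transcripts follow feeding, growth and sexual maturation, which male killifish pass through within weeks of hatching. A piece of liver also holds bile duct, vessel, blood and immune cells, and in fish often pancreatic tissue. In bulk RNA, fewer cells of a type and less RNA per cell cannot be told apart. The files do not pair their identifiers with gene names, and a RefSeq table of 38438 genes (NfurGRZ-RIMD1) matched 0 of them. No gene is therefore named, given a function or placed on a chromosome, and neither the liver label nor other tissues could be checked against marker genes.

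Library totals ran from 22529235 to 42886761 counts, and the 5-week totals were 22529235, 30671390, 32050062, 23771387 and 26698551 for fish 1 to 5. Fish numbers only name the fish within an age. Each library has its own number in its title and is called a fish here. Nothing in the labels states that each library came from its own animal, so spreads and p-values measure differences between these samples, which may be technical. At 5 weeks, the share of the 6360 genes that lay at least 1 log2 unit from the median of their age was 6.38% in fish 1, 3.90% in fish 2, 4.06% in fish 3, 5.06% in fish 4 and 2.12% in fish 5. Among the older fish it ran from 0.314% to 13.0%, with 14-week fish 5 at 13.0%, 10-week fish 2 at 6.37%, 7-week fish 3 at 3.32% and all others at most 1.78%.

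The SD of the median chosen gene was 1.06 log2 units in the 5-week fish, and 0.361, 0.386 and 0.332 in the 3 later groups, youngest first. For the other 6210 genes of the same steps it was 0.377, 0.230, 0.308 and 0.325. These values chose the genes and are a description. The excess at 5 weeks ran from 0.442 to 3.20 with a median of 0.562, so a few genes carried very large spreads and most a moderate one, as the plot of spread per gene shows. Counted by fish, 94 of the 150 genes lay at least 1 log2 unit above the 5-week median in fish 1, 61 in fish 2, 3 in fish 3, 21 in fish 4 and 20 in fish 5. Likewise, 7, 7, 23, 18 and 1 genes lay at least 1 unit below it in fish 1 to 5, so fish 1 and 2 carried most of the high values and fish 3 and 4 most of the low ones.

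**Figure D1:**
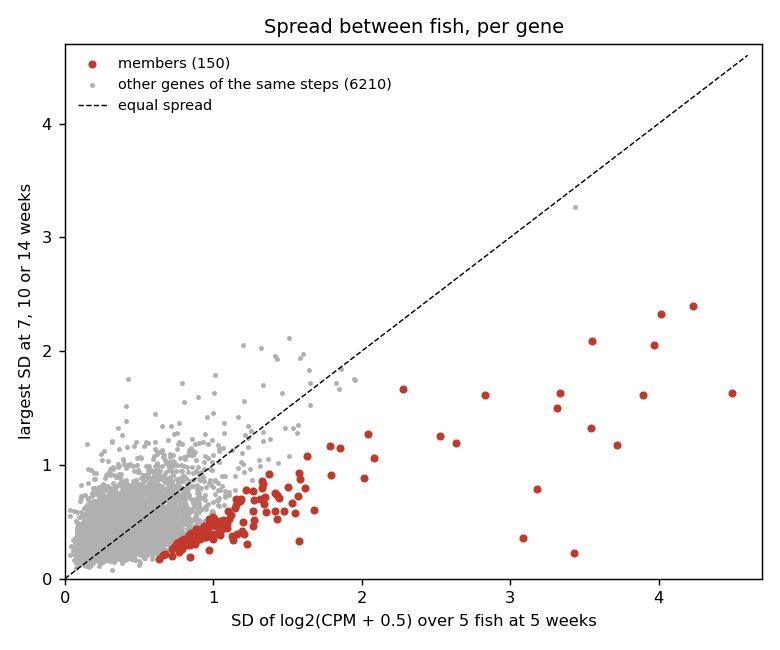
SD of log2(CPM + 0.5) over the 5 fish of 5 weeks (x axis) against the largest SD at 7, 10 or 14 weeks (y axis), 1 point per gene, for the 150 chosen genes and the other 6210 genes of the same steps. The chosen genes lie below the line of equal spread, most of them near an SD of 1 at 5 weeks and the highest at 4.50.

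To describe which genes vary together, the 5 values of each gene at 5 weeks were sorted and divided at the largest gap between neighbours. The side with fewer fish was taken as standing apart, high or low. With 5 fish no correlation across the 5-week fish was computed. Only 6 combinations of fish and direction held 5 or more genes, and together they held 136 of the 150. The largest was that of 62 genes high in fish 1 and 2, followed by 31 genes high in fish 1 alone and 19 high in fish 4 and 5. Another 13 genes were low in fish 3 and 4, 6 were low in fish 3 and 5 were low in fish 4. Fish standing apart were high in 116 genes (77.3%) and low in 34 (22.7%), against 48.1% and 51.9% of all 6360 genes of the same steps. Genes near 0 CPM in most fish could pass the level filter only through fish where they were high. Their wide gaps favoured their choice, so this lean to high sets is in part built in and was not tested.

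Among all 6360 genes, the same division put 12.5% in the set high in fish 1 and 2, 9.04% in the set high in fish 1 and 1.68% in the set high in fish 4 and 5. It put 6.24% in the set low in fish 3 and 4, 7.96% in the set low in fish 3 and 10.9% in the set low in fish 4. The shares of the 150 were 41.3%, 20.7% and 12.7% for the high sets, and 8.67%, 4.00% and 3.33% for the low sets. Because a wide gap raises the SD that chose the genes, these shares are set side by side and not tested. In 130 of the 150 genes (86.7%) the fish standing apart lay beyond all 15 older fish in the direction of the gap, against a background of 33.5% of the 6360 genes. This too follows in part from the choice.

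**Figure D2:**
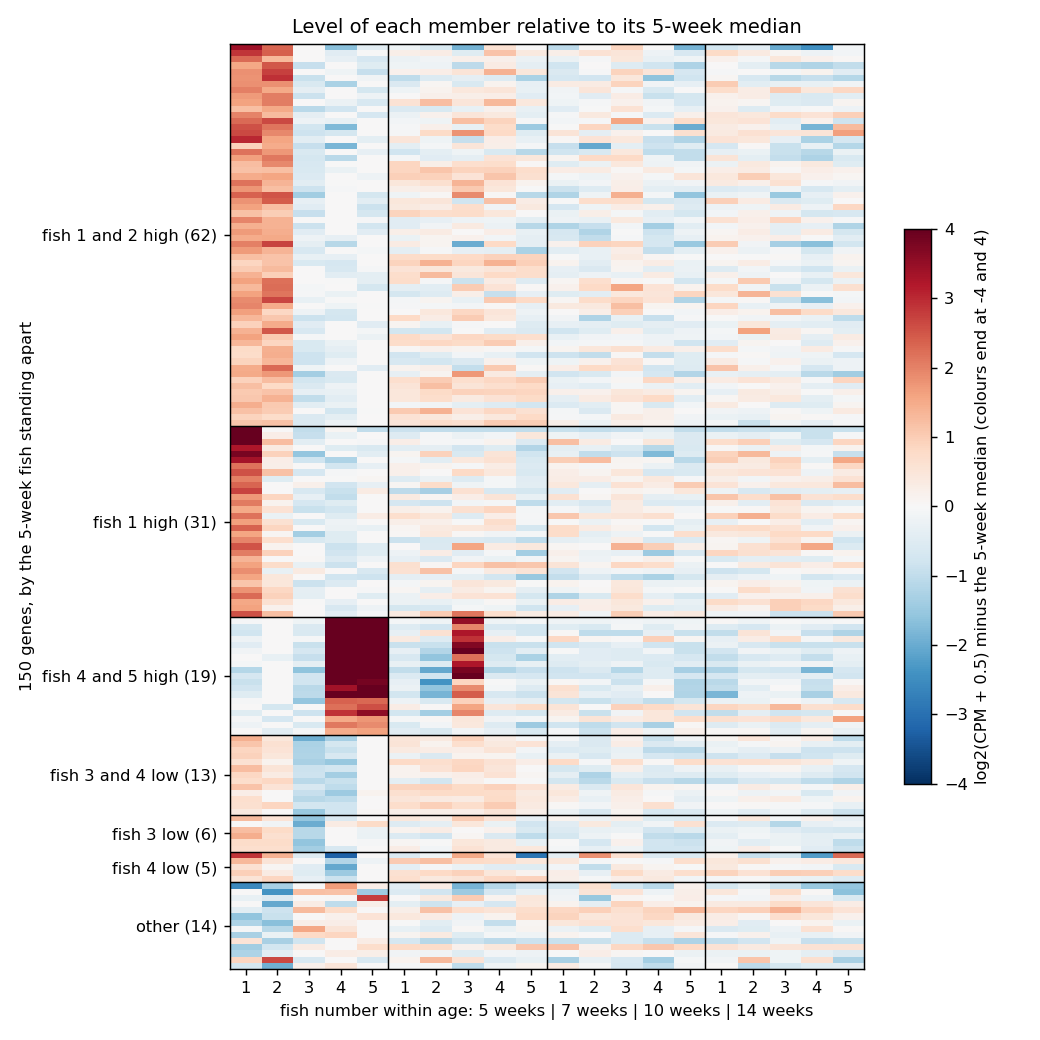
Level of each of the 150 genes (rows, grouped by the 5-week fish that stood apart) in each of the 20 fish (columns, by age), as log2(CPM + 0.5) minus the median of the 5-week fish. The block of 19 genes high in 5-week fish 4 and 5 shows a further column of raised values at 7-week fish 3, and colours end at 4 log2 units in either direction.

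The 19 genes high in 5-week fish 4 and 5 showed the widest separations. Their gap between these 2 fish and the other 3 ran from 1.496 to 7.45 log2 units, with a median of 5.22. The level filter used the mean over the 20 libraries. A gene near 0 CPM in most fish therefore passed only through the fish where it was high. For such genes a wide gap in the high direction was built in. Summed over the 19 genes, fish 4 and 5 had 2061 and 2264 CPM, while fish 1, 2 and 3 had 126.4, 126.2 and 103.7 CPM. The other 3 fish of 5 weeks were thus within the range of most older fish, of which 14 had sums between 99.998 and 174.6 CPM. Neither of the 2 raised fish led in all genes. The signed difference of fish 4 from fish 5 ran from -1.86 to 1.12 log2 units and was positive in 10 of the 19 genes. Its median was 0.012, in which opposite differences cancel, so it does not measure how close the 2 fish were. Dividing the fish at the largest gap also keeps this difference smaller than the gap.

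Nfu_g_1_020291 had the largest excess of this group. It had 98.6 and 239.0 CPM in 5-week fish 4 and 5, against 0.0444, 0.0652 and 0 CPM in fish 1, 2 and 3. In older fish it had 6.02 CPM in 7-week fish 3 and at most 0.0804 CPM in the other 14. Those low values rest on at most 2 reads per fish, so the gene was at or under the limit set by 3 counts in 17 of the 20 livers. Nfu_g_1_022918 had 34.7 and 127.9 CPM in fish 4 and 5, against 0.0444, 0.391 and 0.0936 CPM in fish 1, 2 and 3. It had 2.94 CPM in 7-week fish 3 and at most 0.350 CPM in the other 14 older fish. Both genes were thus higher in the same 3 livers than in all others, with no overlap. For 5-week fish 4 and 5 the level filter and the choice of the genes built this separation in.

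The third liver recurred through the group. In 7-week fish 3 all 19 genes were higher than in the other 4 fish of 7 weeks, and 17 were higher than in all other 14 older fish. Over all 6360 genes, 7-week fish 3 was the highest of the 15 older fish in 8.36%. No such share is given for the highest of the 7-week fish alone. The rule used the 7-week values through their SD, so a large rise in this fish lowered the rank of a gene. The rise in 7-week fish 3 over the median of the other 7-week fish ran from 0.43 to 5.25 log2 units with a median of 2.78. Its level was 3.56% to 57.0% of the mean of 5-week fish 4 and 5, with a median of 17.0%. The summed level was 427.7 CPM in 7-week fish 3.

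**Figure D3:**
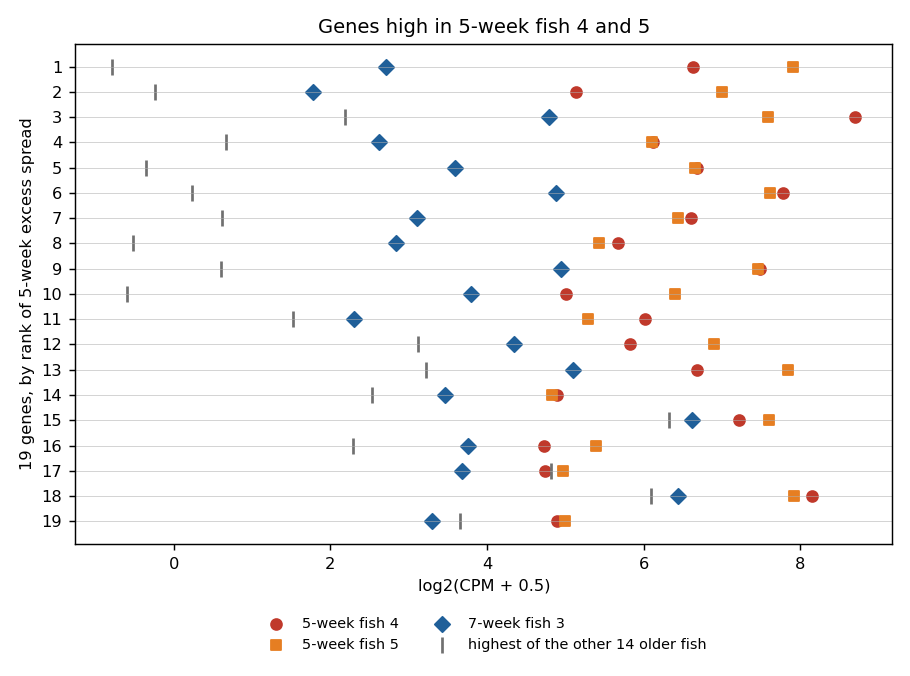
Level of each of the 19 genes high in 5-week fish 4 and 5, in those 2 fish, in 7-week fish 3 and in the highest of the other 14 older fish, as log2(CPM + 0.5). In 17 of the 19 genes 7-week fish 3 lies above every other older fish, and it lies below both 5-week fish in all rows.

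Further genes of the table had the same pattern, under the same level filter and with the same limit on their gaps. Of all genes with a mean of at least 5 CPM, 42 stood apart high in 5-week fish 4 and 5 by at least 2 log2 units. Of these, 16 were among the 150, 25 were lost because the medians of the ages differed by 1 unit or more, and 1 passed that step but ranked lower. In all 26 genes outside the 150, 7-week fish 3 was the highest fish of 7 weeks, and in 23 it was the highest of all 15 older fish. The share of 8.36% covers only genes that passed the step on the medians. No share is given for genes that did not pass it, so these counts have no background. The 2 longest of the 19 genes are also the longest in the table by the lengths that the deposited RPKM imply. They were picked out after their values were seen. Nfu_g_1_019261, of 88565 bp, had 101.8 and 229.1 CPM in 5-week fish 4 and 5, against 4.13, 5.97 and 2.65 CPM in fish 1, 2 and 3. It had 33.8 CPM in 7-week fish 3 and 1.27 to 8.81 CPM in the other 14 older fish. Nfu_g_1_019276, of 67201 bp, had 56.2 and 119.0 CPM in fish 4 and 5, against 2.80, 5.05 and 2.12 CPM in fish 1, 2 and 3, and 19.9 CPM in 7-week fish 3. In both, fish 5 exceeded fish 4, and 7-week fish 3 came next. A longer gene gathers more reads per transcript, so these CPM are not comparable with those of shorter genes. The part that RNA of another cell type had in this pattern was not tested.

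Among the chosen genes, the 62 high in 5-week fish 1 and 2 differed by less per gene than the 19 high in fish 4 and 5. Their gaps ran from 0.740 to 2.401 log2 units with a median of 1.36. Relative to the 5-week median, the median gene stood at 1.57 in fish 1 and 1.48 in fish 2, and at -0.501, -0.224 and -0.002 in fish 3, 4 and 5. Neither raised fish led throughout, since fish 1 was the highest in 29 genes and fish 2 in 33. The rule removed most of the wider gaps of this set. Of all genes with a mean of at least 5 CPM, 101 stood apart high in fish 1 and 2 by at least 2 log2 units. Of these, 6 were among the 150 and 76 were lost at the step on the medians. Another 9 were among the 100 genes of highest mean CPM, and 10 passed but ranked lower. In 51 of the 62 genes both fish exceeded all 15 older fish. The pooled background for fish standing apart, over all 6360 genes, was 33.5%. No share is given for the 795 of these in the same set, and the choice of the genes in part built this count in.

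Summed over these 62 genes, fish 1 and 2 had 5763 and 7270 CPM, against 1251, 1187 and 1752 CPM in fish 3, 4 and 5. The older fish had 1129 to 2807 CPM with a median of 1768. One gene, Nfu_g_1_013094, picked out after its values were seen, held 52.6% of the 5-week sum. It had 2950 and 4133 CPM in fish 1 and 2, against 579.3, 454.1 and 950.2 CPM in fish 3, 4 and 5, and 401.9 to 1664 CPM in the older fish.

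Nfu_g_1_012000 had the largest excess among the 62, with 64.27 and 30.6 CPM in fish 1 and 2, against 5.65, 1.43 and 4.05 CPM in fish 3, 4 and 5. Its older levels ran from 0.627 to 10.6 CPM with a median of 4.02, so the other 3 fish of 5 weeks lay inside the older range and fish 1 and 2 above it. Nfu_g_1_004210 had 29.2 and 20.9 CPM in fish 1 and 2, against 3.56, 2.44 and 3.48 CPM in fish 3, 4 and 5. Its older levels ran from 2.12 to 8.42 CPM with a median of 4.31.

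The 31 genes high in 5-week fish 1 alone had gaps from 0.645 to 7.03 log2 units with a median of 1.49. Fish 1 exceeded all 15 older fish in all 31, which the choice of the genes in part built in. No such share is given for the 575 genes of the same set among the 6360. Fish 2 was the next highest fish in 24 of the 31, with a median of 0.451 above the 5-week median on library totals. Many of these genes thus leaned the same way as the preceding group. No such count over other genes is given, and TMM scaling moved the median gene of fish 2 by -0.194 log2 units. How much of the lean comes from the scaling was not tested. Their sum was 1732 CPM in fish 1, against 399.2, 268.3, 214.8 and 266.0 CPM in fish 2 to 5, and 276.7 to 408.1 CPM in the older fish.

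A few genes of this group stood far beyond the rest. Those near 0 CPM elsewhere passed the level filter only through fish 1, so their wide gaps were in part built in. Nfu_g_1_001714, the gene with the largest excess of all 150, had 135.9 CPM (3061 reads) in fish 1, against 0.489, 0, 0.547 and 0 CPM in fish 2 to 5. No older fish had more than 0.231 CPM (7 reads in 10-week fish 4), and no other older fish had more than 1 read. Nfu_g_1_005961 had 131.2 CPM in fish 1, against 1.14, 0.218, 0.631 and 0.861 CPM in fish 2 to 5. Its older levels ran from 0.235 to 1.38 CPM with a median of 0.654. Each gene was thus at most 1.38 CPM in all livers but that of 5-week fish 1. Over all genes with a mean of at least 5 CPM, 17 stood apart high in fish 1 by at least 3 log2 units, of which 4 were among the 150 and 13 were lost at the step on the medians.

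**Figure D4:**
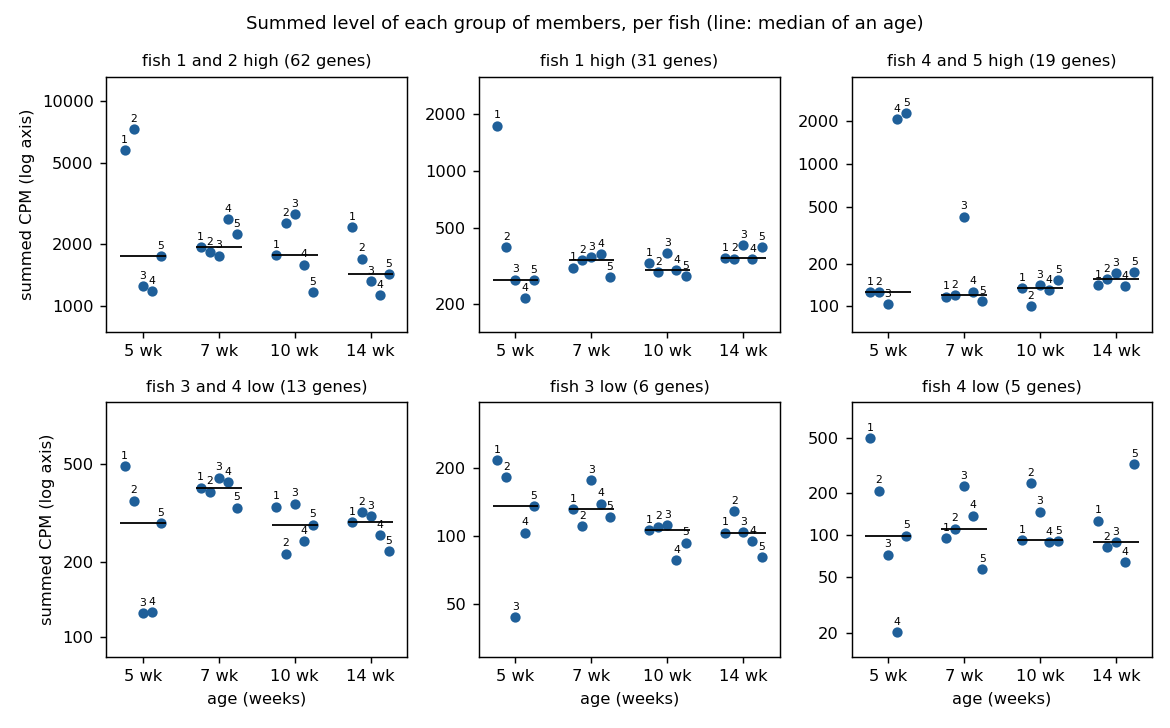
Summed CPM of each of the 6 groups of genes in every fish, on a log axis, by age; numbers name the fish within an age and lines mark the median of 5 fish. Fish 1 and 2, fish 1, and fish 4 and 5 lead the 5-week fish in the 3 upper panels, with 7-week fish 3 at 427.7 CPM in the upper right, and the fish standing apart lie lowest in the lower panels.

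The 3 low groups held 24 genes. On library totals their median gaps were 0.815, 0.928 and 0.973 log2 units (low in fish 3 and 4, in fish 3 and in fish 4). These were smaller than those of the 3 high groups, although single genes reached 2.73. With TMM, the genes that kept their set had medians of 0.674, 1.10 and 1.14 in these low groups. The medians were 1.08, 1.29 and 5.37 for those high in fish 1 and 2, in fish 1 and in fish 4 and 5. The order of the groups thus changed with the scaling. Genes near 0 CPM in most fish passed the level filter only through fish where they were high, so wide high gaps were in part built in. The 13 genes low in fish 3 and 4 had gaps from 0.644 to 1.31 log2 units with a median of 0.815. Fish 3 and 4 summed to 125.1 and 126.4 CPM, against 490.2, 355.3 and 288.2 CPM in fish 1, 2 and 5, and 217.0 to 439.1 CPM in the older fish. Fish 1 was the highest 5-week fish in 11 of the 13 genes, and no such count over other genes is given. On library totals the 5-week values of these genes thus spread over both sides, with fish 3 and 4 at the bottom and fish 1 mostly at the top. TMM scaling moved the median gene by -0.334 log2 units in fish 1, 0.248 in fish 3 and 0.064 in fish 4. How much of this spread comes from the scaling was not tested. Nfu_g_1_015243 had 5.21 and 8.41 CPM in fish 3 and 4, against 58.32, 29.8 and 21.6 CPM in fish 1, 2 and 5, and 10.4 to 41.4 CPM in the older fish. Nfu_g_1_000315 had 2.43 and 3.87 CPM in fish 3 and 4, against 14.6, 10.2 and 6.55 CPM in fish 1, 2 and 5, and 4.19 to 10.9 CPM in the older fish. In both genes the 2 low fish lay under all 15 older fish, as they did in 8 of the 13. As in the high groups, the choice of the genes in part built this in, and no share over the whole set is given.

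The 6 genes low in fish 3 summed to 44.0 CPM in that fish, against 216.4, 183.0, 103.6 and 135.8 CPM in fish 1, 2, 4 and 5. All 6 were lower in fish 3 than in any older fish, which the choice of the genes in part built in. No share over the whole set is given. Nfu_g_1_012063 had 2.53 CPM in fish 3, against 20.8, 12.5, 5.51 and 8.39 CPM in fish 1, 2, 4 and 5, and 5.68 to 17.5 CPM in the older fish. Nfu_g_1_020182 had 5.46 CPM in fish 3, against 22.9, 20.8, 28.6 and 39.3 CPM in fish 1, 2, 4 and 5, and 10.1 to 35.2 CPM in the older fish. The 2 genes shared the low fish but not the order of the rest.

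The 5 genes low in fish 4 were lower there than in any older fish, which the choice of the genes in part built in. No share over the whole set is given. Nfu_g_1_006804, which made up 75.6% of their 5-week sum, had 5.68 CPM in fish 4, against 421.1, 152.1, 40.5 and 57.8 CPM in fish 1, 2, 3 and 5. It also varied widely later, from 7.27 to 277.8 CPM. Nfu_g_1_008284 had 1.47 CPM in fish 4, against 10.5, 5.87, 3.93 and 3.37 CPM in fish 1, 2, 3 and 5, and 3.76 to 9.62 CPM in the older fish. The first gene is thus variable at every age, and the second mainly at 5 weeks.

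The remaining 14 genes were spread over 9 further sets of 1 to 3 genes each. The commonest were 3 genes low in fish 2 and 3 genes low in fish 1 and 2. Among the last was Nfu_g_1_011190, picked out after its values were seen as the gene of highest mean CPM of all 150. It had 384.7 and 617.9 CPM in fish 1 and 2, against 1141, 1289 and 1655 CPM in fish 3, 4 and 5, and 995.6 to 2103 CPM in the older fish. It was thus low in the same pair of livers in which 62 genes were high.

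Scaling by TMM, a trimmed mean of the genes between libraries, moved the median gene by -0.334 log2 units in 5-week fish 1, -0.194 in fish 2 and 0.248 in fish 3 relative to library totals, and by 0.064 and 0.044 in fish 4 and 5. With TMM, 75 of the 150 genes were chosen again. They included all 19 of the genes high in fish 4 and 5, 24 of the 62 high in fish 1 and 2, 13 of the 31 high in fish 1, 3 of the 13 low in fish 3 and 4, 1 of the 6 low in fish 3 and 3 of the 5 low in fish 4. With TMM, the fish standing apart were the same for 50 of the 62 genes high in fish 1 and 2. They were also the same for 28 of the 31 high in fish 1 and 10 of the 13 low in fish 3 and 4. The median gaps of the genes that kept their set were 1.08, 1.29 and 0.674 log2 units. All 19 genes high in fish 4 and 5 and all 5 low in fish 4 kept their set, with larger median gaps of 5.37 and 1.14 log2 units. Of the 6 genes low in fish 3, 4 kept their set, with a median gap of 1.10 log2 units. Each TMM median covers only the genes that kept their set, so this 1.10 is not comparable with the 0.928 of all 6. The 1.08, 1.29 and 0.674 are likewise not comparable with the library-total medians of their whole groups. In the 2 named genes low in fish 3, its gap went from -0.990 to -0.834 log2 units (Nfu_g_1_012063) and from -1.84 to -1.41 (Nfu_g_1_020182).

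Whether genes that varied together at 5 weeks also did so later was described over the 15 older fish after subtracting the mean of each age. The fish share their ages but no library, and pairs of genes are not independent. The rule used the SD of these same 15 fish, though not how genes varied together. The mean Pearson r was 0.232 over the 2630 pairs within a group, 0.146 over the 6550 pairs of different groups and 0.0812 over all pairs of the 6360 genes. With library totals it was 0.671 within the genes high in fish 4 and 5 (171 pairs). Within those low in fish 3 and 4 it was 0.416 (78 pairs), and within those low in fish 3 it was 0.376 (15 pairs). It was 0.205 within the genes high in fish 1 and 2, 0.152 within those high in fish 1 and 0.0288 within those low in fish 4. Without 7-week fish 3 the value for the genes high in fish 4 and 5 was 0.132, so their later co-variation rested on that liver. The value for the genes low in fish 3 and 4 was then 0.424, and that over all pairs of the 6360 genes was 0.0864. Over all pairs within a group, leaving out 1 older fish at a time gave 0.164 (without 10-week fish 3) to 0.253 (without 14-week fish 5). No background without 10-week fish 3 is given. With TMM scaling the mean r over all pairs within a group was 0.147, and 0.645 within the genes high in fish 4 and 5. No TMM values for pairs of different groups or for all pairs are given, so the 0.147 has no background on that scaling. None are given within the other groups either, so how their values depend on the scaling was not tested.

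Differences between the ages were tested over the whole table with edgeR's quasi-likelihood test, with Benjamini-Hochberg adjustment over 16475 genes at an adjusted p under 0.05. Of the 150 genes, 145 passed its filter on low counts, and 4 of the 5 that did not belonged to the genes high in fish 4 and 5. Between 7 and 5 weeks 31 of the 145 were called, 7 higher and 24 lower at 7 weeks, beside 21.1% of all tested genes. Between 10 and 5 weeks 24 were called, all lower at 10 weeks (0 higher), beside 7.96% of all. Between 14 and 5 weeks 13 were called, all lower at 14 weeks (0 higher), beside 3.95% of all. Among the 4 ages 53 were called, beside 35.8% of all. These comparisons share the 5-week fish whose spread chose the genes, so nothing is read from the counts. Over the 145 genes the median log2 change against 5 weeks was -0.58 at 7 weeks, -0.68 at 10 weeks and -0.53 at 14 weeks, beside -0.09, -0.07 and -0.08 over all tested genes.

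Over all tested genes, 11.5% were called lower and 9.66% higher at 7 weeks, 5.41% lower and 2.56% higher at 10 weeks, and 2.65% lower and 1.31% higher at 14 weeks. The groups were formed from the 5-week fish that were high or low, so the direction of later calls within them is in part built in. Of the 15 tested genes high in fish 4 and 5, 8, 10 and 8 were called lower at 7, 10 and 14 weeks. Of the 62 genes high in fish 1 and 2, 9 were called lower and 1 higher at 7 weeks, 8 lower at 10 weeks and 3 lower at 14 weeks. Of the 30 tested genes high in fish 1, 6, 5 and 1 were called lower at 7, 10 and 14 weeks. Of the 13 genes low in fish 3 and 4, 5 were called higher at 7 weeks and 1 lower at each later age. The only other edgeR call in the 3 low groups was 1 gene low in fish 4, higher at 7 weeks. With the libraries of the 2 ages alone, 4 of the 150 genes were called by edgeR between 7 and 5 weeks, beside 13% of all genes tested in that fit. For 10 and 5 weeks alone 0 were called, beside 1.54% of all. For 14 and 5 weeks alone 0 were called, beside 0.0319% of all. At an unadjusted p under 0.05 these 3 edgeR fits held 40, 45 and 28 of the 150 genes. No share of all genes at that unadjusted limit is given, so nothing is read from these counts. DESeq2 on all libraries called 43 of the 150 genes at 7 weeks, 36 at 10 weeks and 25 at 14 weeks, beside 24.3%, 12.5% and 8.69% of all genes with an adjusted p.

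Gene length was not used by the rule. By the lengths implied by the deposited RPKM, the 150 genes had a median of 3948 bp (198 to 88565 bp), and the other 6210 genes of the same steps had 3166 bp (23 to 26901 bp). By group the median was 4145 bp for the genes high in fish 1 and 2, 4069 bp for those high in fish 1 and 3375 bp for those high in fish 4 and 5. It was 5800 bp, 4146 bp and 3990 bp for those low in fish 3 and 4, in fish 3 and in fish 4. Per length, the mean level of the 150 genes had a median of 3.82 RPKM computed from each library's own total, against 6.09 RPKM for the other 6210.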

How the data were processed

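The 20 liver libraries of male GRZ killifish were made from total RNA with the TruSeq RNA v2 kit, an unstranded kit, per the labels. The submitters' processing notes list featureCounts 1.4.6-p4, STAR 2.4.1d and CASAVA 1.8.2. Build, annotation and settings were not given in the sources used here. Every level and test used the deposited raw counts, whole numbers of reads for each gene. The authors also deposited RPKM, whose values divide the counts by a cycle of 25 totals rather than by each library's own, so only the gene lengths they imply were used (residual SD 9.92e-05 log2 units, 21269 genes). Near-identical copies, overlapping genes and antisense partners may share reads.

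Ages came from the labels and fish were numbered in accession order. The members and gene groups were chosen with earlier results of these data known. For each group of at least 5 genes the 2 with the largest excess were named, plus the genes either side of the limit. Tests used R 4.3.3, edgeR 4.0.16 (filterByExpr, TMM, 1 mean per age, all 20 libraries) and, as an alternative, DESeq2 1.42.0. The rule and the edgeR test, but not DESeq2, were also run on simulated counts. Other scalings, pseudocounts, filters and left-out fish were tried. A library with no read of a gene allows up to 3 counts, or 0.0700 to 0.133 CPM by library, for counting error only. The planned marker lists could not be applied without gene names.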

Additional observations from a re-analysis of the deposited data

Results flagged for a closer look

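Values of the 12 named genes and of the 6 group sums were examined at each age on the log2 scale for a single fish far from the other 4 (72 sets of 5 fish). Chance flags about 1 in 20 sets of independent, normally distributed values, and 9 were marked. The genes were chosen by their spread and the group sums hold the named genes. The number marked is therefore not read against that rate. The figure given for each is the gap to the nearest fish divided by the whole range of the 5 fish.

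At 5 weeks, fish 1 stood apart in Nfu_g_1_001714 (0.868) and Nfu_g_1_005961 (0.841), the separation by which these genes were chosen. Nfu_g_1_001714 was also marked at 7 weeks (1.0, where fish 1 had 1 read and the others 0) and at 10 weeks (0.819, where fish 4 had 7 reads). Nfu_g_1_020291 was marked at 10 weeks (1.0, where fish 3 had 1 read and the others 0). These rest on very few reads.

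At 7 weeks, fish 3 stood apart high in Nfu_g_1_020291 (0.970), in Nfu_g_1_022918 (0.912) and in the sum of the 19 genes high in 5-week fish 4 and 5 (0.890). At 10 weeks, fish 3 stood apart high in Nfu_g_1_000315 (0.736), at 8.23 CPM against at most 5.03 CPM in the other 4 fish.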

How the results depend on the processing

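Of the 150 genes, those chosen again numbered 75 with TMM scaling, 26 and 89 with a mean CPM of at least 1 and 10, 17 with no filter on low values, 36 with no limit on the medians and 56 with the median absolute deviation. Leaving out 1 fish at a time kept 67 to 138, the fewest being 67, 87, 79 and 91 when 5-week fish 1, 2, 3 or 4 was dropped. In alternatives chosen after seeing the data, dropping 5-week fish 1 and 2 together kept 9, and dropping fish 4 and 5 kept 49. Dropping no abundant genes kept all 150.

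Among the 150 genes chosen under each setting, the genes high in fish 1 and 2 numbered 25 with TMM and those high in fish 1 numbered 12. Those low in fish 3 and 4 numbered 2 with TMM, 6 with a pseudocount of 2 CPM and 2 when fish at least 1 log2 unit from the median were taken. Those low in fish 3 numbered 1 with TMM, 12 with a pseudocount of 0.1 CPM and 2 with 2 CPM, and those low in fish 4 numbered 1 with 2 CPM. The genes high in fish 4 and 5 numbered 25 with TMM, 13 with 0.1 CPM and 34 with 2 CPM. Taking 300 genes gave 122 high in fish 1 and 2, 50 high in fish 1, 20 high in fish 4 and 5, 25 low in fish 3 and 4, 18 low in fish 3 and 13 low in fish 4. Leaving out each older fish gave 4 to 12 genes low in fish 3 (12 without 14-week fish 5) and 3 to 25 low in fish 4 (25 when 10-week fish 2 was left out, 3 for each of 7-week fish 1, 10-week fish 1, 10-week fish 4 and 14-week fish 3). The cause was not tested. Co-variation within the genes high in fish 4 and 5 ran from 0.132 without 7-week fish 3 to 0.707.

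With 1 fish left out, edgeR called 15 to 37 of the 150 between 7 and 5 weeks (18, 17, 15 and 19 for 7-week fish 1, 2, 4 and 5, beside 15%, 13.2%, 14% and 17.5% of all tested genes). It called 0 to 49 between 10 and 5 weeks: among 5-week fish, 15, 13 and 49 when fish 1, 2 or 3 was left out (4.78%, 3.55% and 14.3% of all), and among 10-week fish, 7, 11, 6, 0 and 7 for fish 1 to 5 (4.29%, 6.09%, 3.82%, 1.6% and 3.89% of all). It called 0 to 29 between 14 and 5 weeks: 29 when 5-week fish 3 was left out (8.21% of all), 8 for 10-week fish 1 (3.02%), and among 14-week fish, 1, 6, 0, 0 and 7 for fish 1 to 5 (2.02%, 4.08%, 1.1%, 0.816% and 5.42% of all). The share of all genes called thus moved too. At the 3 counts of 0, 56, 46 and 42 genes had an unadjusted p under 0.05, for which no share of all genes is given. With the libraries of the 2 ages alone it called 4, 0 and 0, and DESeq2 called 25 between 14 and 5 weeks. No paired analysis was possible because the labels give no numbers that link fish of different ages. Genes near 0 CPM are limited by depth, and their gaps depend on the pseudocount.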
